A study of Bos taurus with 32 samples.

Results

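ALKBH5 (ENSBTAG00000025046) encodes an enzyme that removes N6-methyladenosine (m6A), the methylated form of adenosine in RNA. The deposited table of m6A sites in bovine oocytes and preimplantation embryos holds 29 sites whose gene symbol is ALKBH5, of 65535 sites in all. Of these, 23 were called in immature germinal vesicle (GV) oocytes, and 6 were called in mature metaphase II (MII) oocytes and not at GV. Sites called first after MII were not analysed here, so every count below is of these 29. A call here is a deposited score of at least 0.1, since every listed site reaches that value at some stage.

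The study mapped m6A by m6A-SAC-seq, in which an allyl label on m6A leaves a mutation in the complementary DNA. Total RNA came from oocytes at GV and at MII, from embryos with 2, 4, 8 and 16 cells, and from the morula and the blastocyst, with 2 input and 2 treated libraries per stage and 200 cells in each replicate. No gene change or drug is named in the labels. Oocytes from slaughterhouse ovaries were matured for 22 to 23 h, fertilised with Holstein semen for 18 h and cultured until day 7.5. The table gives 1 score per site and stage, so no value below has a replicate error and no p-value is given. The titles of the treated embryo libraries say oocytes, while their stage names and source field say embryo, and the column headings name the stage only.

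ALKBH5 is an oxygenase of the AlkB family that works mainly in the nucleus and reverses the methylation laid down by the METTL3 and METTL14 writer complex. Mice without it are known for impaired sperm formation, and it is known to act on messenger RNA. YTH and IGF2BP proteins bind m6A and alter the decay, translation or stability of the RNA. A site in the ALKBH5 transcript is a mark on the message of the enzyme and is no measure of its activity.

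All 29 sites lay on the minus strand of chromosome 19, and are numbered here from site 1 at the 5′ end of the transcript (position 34439551) to site 29 at the 3′ end (position 34422416, all as the authors' table gives them). The genome build is not given in the sources used here. They formed 4 groups separated by more than 500 bases of genome. Sites 1 to 8 spanned 735 bases, sites 9 to 12 spanned 66 bases, sites 13 to 15 spanned 74 bases and sites 16 to 29 spanned 1554 bases. Coding sequence held 17 sites and the 3′ untranslated region (UTR) held 12, with none in the 5′ UTR or in introns. The border of coding sequence and 3′ UTR fell in the 71 bases between site 17, the last coding site, and site 18, the first one of the UTR. No other site of the table lay between site 1 and site 29.

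**Figure D1:**
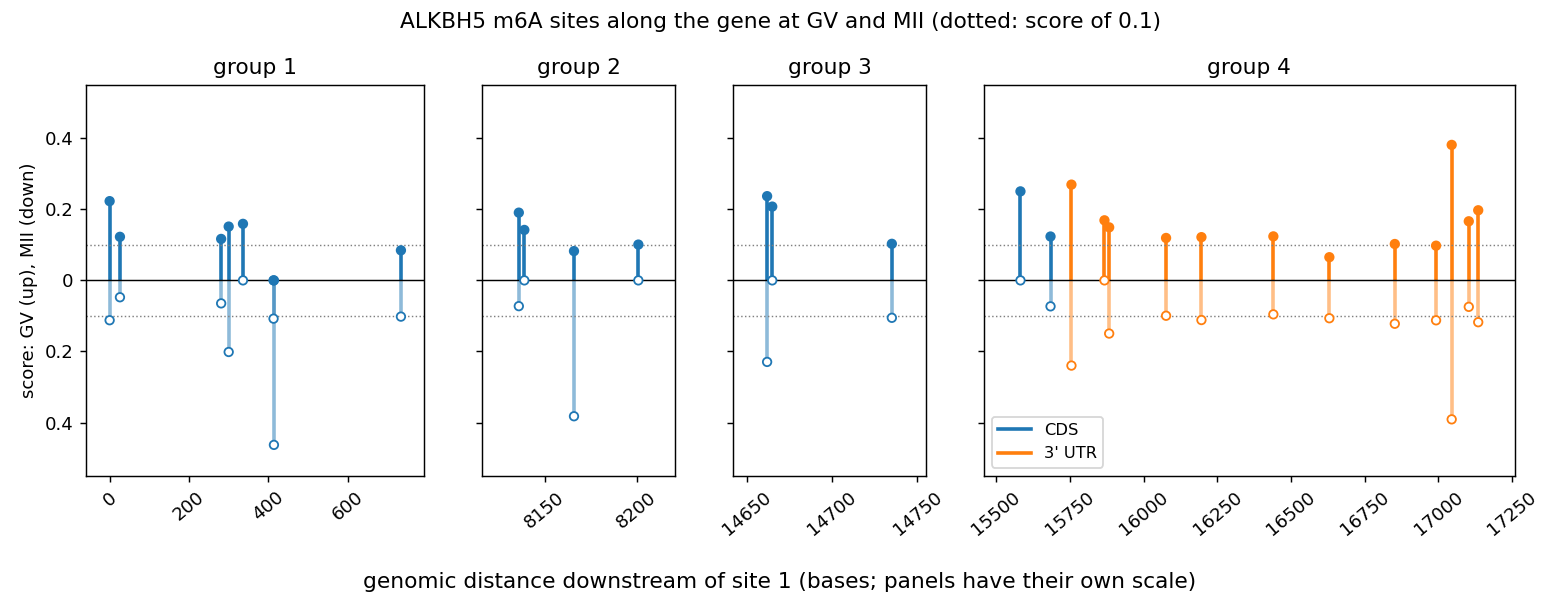
Score of each ALKBH5 site at GV (upwards, filled points) and at MII (downwards, open points) by genomic distance downstream of site 1 in bases, in 4 panels with their own scales; blue marks coding sequence, orange the 3′ UTR. The highest bars were site 27 at GV (0.381) and site 7 at MII (0.463).

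The sequences show the adenosines on which the account below turns, as the table gives them, with T for U. The scored adenosine is in capitals. Where the motifs of neighbouring sites overlapped, a single run is given, and the letters agreed at all 3 such pairs in ALKBH5 and at all 1627 pairs of sites within 4 bases in the whole table.
Site 18, 3′ UTR, chr19:34423796: ggAct
Site 27, 3′ UTR, chr19:34422506: ggAct
Site 17, coding, chr19:34423867: ggAct
Sites 13 and 14, coding, chr19:34424884-34424891: agAcgAga
Sites 9 and 10, coding, chr19:34431410-34431417: tgAtgAaa
Site 11, coding, chr19:34431385: ggAca
Sites 6 and 7, coding, chr19:34439135-34439140: agAAgc
The first 3 are the same GGACT motif on either side of the stop border, the next are neighbouring adenosines with different scores over the stages, and the last 2 lines are sites called at MII and not at GV.

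DRACH is the consensus motif of m6A (D is A, G or T, R is A or G, and H is A, C or T). It surrounded 7 of the 23 GV-called sites, 30.4%, and 30.4% of all 60417 GV-called sites of the table. Some sites of the table have no listed motif, while all sites of ALKBH5 have one. Listed motifs outside DRACH made up 69.6% in ALKBH5 and 58.5% in the table. Of the 23 sites, GAC stood at the centre of 9, GAT of 7, GAA of 4 and GAG of 3. GGACT was the most frequent motif, with 3 of the 29 sites, and 4 other motifs occurred at 2 sites each, GGACC and GGACA among them. The 3′ UTR held 43.5% of the GV-called sites of ALKBH5, against 20.6% in the table.

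Scores in ALKBH5 were low. At GV they ran from 0.101 at site 12 to 0.381 at site 27, with a median of 0.151 (quartiles 0.122 and 0.202), against a median of 0.216 (quartiles 0.152 and 0.365) over all GV-called sites. Scores under 0.15 were found at 11 of the 23 sites, 47.8%, and at 24.2% of the sites of the table. The score also depends on the motif, so each site was set beside all GV-called sites with the same 5 bases. In 20 of the 23 sites the score lay below the median of the same motif, and of 1829 protein-coding genes with at least 10 such sites, 48 others had an equal or higher percentage of sites below. The coding GGACA of site 16, with 0.251, was farthest from its motif, whose median was 1.45. The coding GGACT of site 17 scored 0.123 and the GGACT sites 18 and 27 of the 3′ UTR scored 0.269 and 0.381, all below the 0.435 of that motif. Sites 9, 28 and 29, each with T after the adenosine, were the 3 above it.

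**Figure D2:**
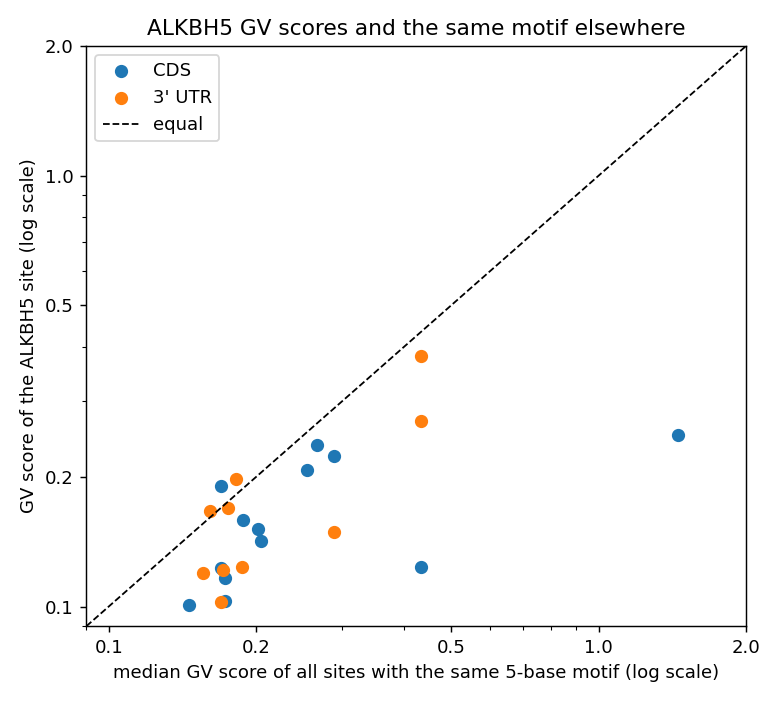
GV score of each of the 23 GV-called ALKBH5 sites against the median GV score of all sites with the same 5-base motif, both on log scales, with a dashed line of equality; blue is coding sequence, orange the 3′ UTR. Of the points, 20 lie below the line and 3 above it.

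From GV to MII, 10 of the 23 sites had calls at both stages, 43.5% (exact 95% interval 23.2 to 65.5, which covers the counting of sites only), against 34.1% of all GV-called sites of the table. The interval includes the value of the table. Of 1887 other protein-coding genes with at least 10 GV-called sites, 649 had an equal or higher percentage. At the 10 sites called at both stages the log2 ratio of the MII score to that at GV had a median of -0.02 (range -0.99 to 0.41), and in the table it was -0.11. Site 1, the most 5′ one, had 0.223 at GV and 0.112 at MII, the widest fall. Site 4 had 0.151 and 0.202, the widest rise. Site 27 with 0.381 and 0.391, site 18 with 0.269 and 0.240, and site 13 with 0.237 and 0.229 were the highest 3 at GV among these 10.

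The 13 GV-called sites that were not called at MII fell into 2 kinds. At 7 of them (sites 2, 3, 9, 17, 21, 23 and 28) the MII score was above 0 and below the limit, from 0.0475 at site 2 to 0.0995 at site 21. At the other 6 (sites 5, 10, 12, 14, 16 and 19) it was 0. Scores above 0 and below 0.1 made up 53.8% of the uncalled sites of ALKBH5, against 7.19% of 39792 such sites in the table. Of 1109 protein-coding genes with at least 10 sites called at GV and not at MII, 1 other, DERL1, had as high a percentage (58.3%). That gene was chosen after its values were seen. A 0 does not say whether the adenosine lacked the mark or was not measured, and the read depth behind the scores is unknown, so its part in these numbers was not tested.

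In all, 16 ALKBH5 sites were called at MII, and 6 of them, 37.5% (interval 15.2 to 64.6), were not called at GV. For chromosomes 10 to 19 the table shows both stages in full on the minus strand, and there the percentage was 53.2% of 8217 MII sites. These 6 sites were again of different kinds. Sites 8, 11, 24 and 26 had GV scores above 0 and just below the limit, from 0.0653 to 0.0977. Only 9.18% of the 4369 MII-only sites of that window had a GV score above 0. Sites 6 and 7, neighbouring adenosines of agAAgc, were at 0 at GV. They were called at no stage other than MII, where site 6 scored 0.108 and site 7 scored 0.463, the highest MII score of the gene. Site 7 was the only one of the 29 without G before the adenosine.

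Among the MII-only sites, the coding GGACA of site 11 had the widest change. Its score was 0.0824 at GV, 0.382 at MII, 0.514 in 2-cell, 0.142 in 4-cell and 0.611 in 8-cell embryos, and 0 in 16-cell and later embryos. The value of the 8-cell stage was the highest of the 29 listed sites at any stage, and still below the GV median of its motif. Site 24, a CGACC in the 3′ UTR, had 0.0653 at GV and 0.106 at MII, 0 in 2-cell, 0.106 in 4-cell, 0.144 in 8-cell and 0.321 in 16-cell embryos, and 0 afterwards. Site 26 was called at MII (0.112) and in 4-cell embryos (0.163). Site 8 was called at MII alone (0.102), with scores of 0.0195 and 0.00599 in 4-cell and 8-cell embryos. Over the 6 sites the median MII score was 0.110, against 0.208 in the window.

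Of the 6 MII-only sites 3 were called at a later stage. In 4-cell embryos 3 were called, against 13.7% of the MII-only sites of the window. In 8-cell embryos 2 were called, against 3.73%, and 1 was called in 2-cell (against 2.75%) and in 16-cell embryos (against 2.66%). None was called in morulae or blastocysts, where the window had 2.04% and 3.8%. Just inside the limit at GV lay site 12 (0.101), site 25 (0.102) and site 15 (0.103), and just outside it site 26 (0.0977).

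**Figure D3:**
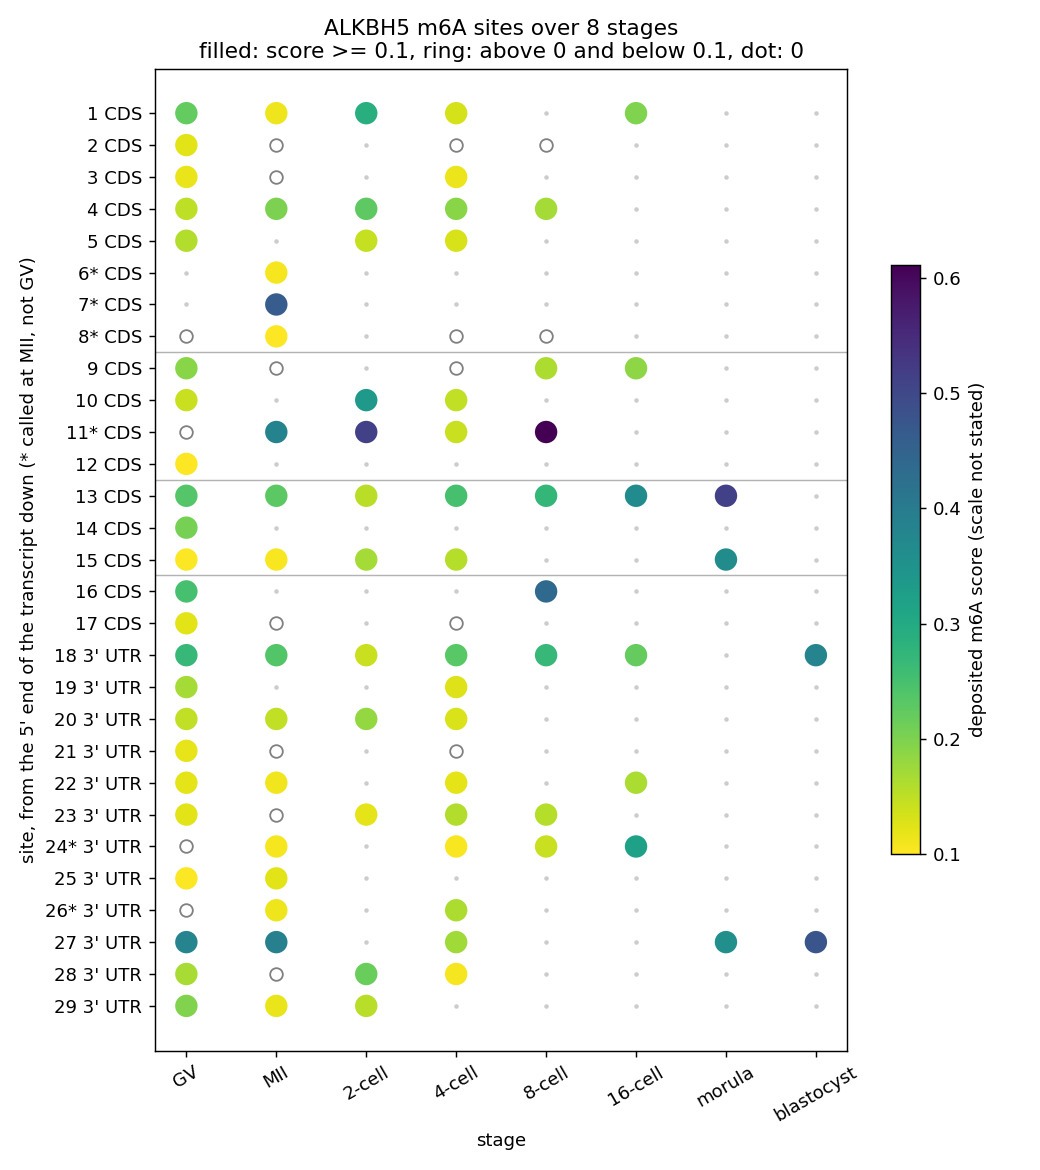
Score of the 29 ALKBH5 sites (rows, from the 5′ end down; stars mark sites called at MII and not at GV; lines separate the 4 groups) at the 8 stages. Filled points are called, rings are above 0 and below 0.1, dots are 0; called sites numbered 23 at GV, 16 at MII, 12 in 2-cell and 17 in 4-cell embryos, and 2 in blastocysts.

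At the 2-cell stage 11 of the 23 had a call, 47.8% (interval 26.8 to 69.4), against 7.39% of the table. ALKBH5 thus had as many calls in 2-cell embryos as at MII or more (11 and 10), which was the case in 71 of 1888 protein-coding genes with at least 10 GV-called sites, ALKBH5 included. Of these 71, 45 had a call at MII, as ALKBH5 did, and the others had 0 there. The order in ALKBH5 depended on the limit and rests on few calls. With a limit of 0.2, 1 of 6 GV-called sites was called in 2-cell embryos and 3 of 6 at MII. With any score above 0 it was 12 of 27 and 21 of 27. Over all 29 listed sites 12 were called in 2-cell embryos and 16 at MII. The sites share 1 transcript, so they are not independent, which the interval does not cover. Of the other 1887 genes, 29 had an equal or higher percentage in 2-cell embryos, and the median gene had 4.35%. Of the 10 sites called at GV and MII, 7 were called in 2-cell embryos, against 15.6% in the table, and of the 13 not called at MII 4 were, against 3.14%. These 4 were sites 5, 10, 23 and 28.

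The 2-cell scores of these sites were moderate. Site 10, the downstream adenosine of tgAtgAaa, had 0.142 at GV, 0 at MII, 0.335 in 2-cell and 0.148 in 4-cell embryos, while its neighbour site 9 had 0 in 2-cell embryos. Site 1 had 0.289, site 4 had 0.227 and site 28 had 0.217. The remaining 7 of the 11 scored from 0.122 at site 23 to 0.183 at site 20. With a limit of 0.2 for a call at both stages, 1 of 6 GV-called sites was called in 2-cell embryos, 16.7%, against 6.3% of the table. The median log2 ratio of 2-cell to GV score was 0.29 at the 11 sites and 0.31 in the table. Over all sites called at GV or in 2-cell embryos, with 0.1 added to each score, it was -0.80.

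By the 4-cell stage 14 of the 23 were called, 60.9% (interval 38.5 to 80.3), against 22.7% of the table, and 64 of the other 1887 genes had an equal or higher percentage. Of the 29 listed sites, more were called at this stage than at any other after GV, 17 with the MII-only sites 11, 24 and 26 included. That order held only at the limit of 0.1. With a limit of 0.2, 2 of the 29 were called in 4-cell embryos, against 6 at MII, 5 in 2-cell and 4 in 8-cell embryos. With any score above 0 there were 22 in 4-cell embryos and 23 at MII. At the limit of 0.1 the 4-cell stage held 10 of the 11 sites called in 2-cell embryos, 90.9% (interval 58.7 to 99.8), against 63.3% of such sites in the table. The interval includes the value of the table. The exception was site 29, a TGATA near the 3′ end, with 0.197 at GV, 0.118 at MII and 0.154 in 2-cell embryos. Site 29 was at 0 in 4-cell and later embryos. Sites 3, 19, 22 and 27 had a 4-cell call and a 2-cell score of 0. Scores lay in a narrow range, from 0.106 at site 24 to 0.251 at site 13. A further 4 GV-called sites (2, 9, 17 and 21) had scores from 0.0412 to 0.0991. With a limit of 0.2, 2 of 6 GV-called sites were called, 33.3%, against 17.8% of the table.

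At the 8-cell stage 6 of the 23 sites were called, 26.1% (interval 10.2 to 48.4), against 9.32%, and 4 of these had been called in 4-cell embryos. An equal or higher 8-cell percentage was found in 196 of the other 1887 genes. Over all genes, 26.2% of the sites with a 4-cell call had an 8-cell call, and in ALKBH5 4 of 14, 28.6%. Sites 9 and 16 had an 8-cell call without a 4-cell call. The GGACA of site 16 was at 0 at every stage other than GV (0.251) and the 8-cell stage (0.439). Embryonic genome activation in cattle is known to have its main phase around this stage, and the table cannot tell maternal from embryonic transcripts.

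In 16-cell embryos 5 of the 23 were called, 21.7% (interval 7.46 to 43.7), against 6.01%. An equal or higher percentage was found in 152 of the other 1887 genes. The 5 were sites 1, 9, 13, 18 and 22, with scores from 0.166 to 0.366, and site 24 came in addition. Morulae had 3, 13.0% (interval 2.78 to 33.6), against 4.42%, and 186 of the other genes had an equal or higher percentage. The 3 sites scored 0.514 (site 13), 0.365 (site 15) and 0.357 (site 27). At these sites, called at both stages, the median log2 ratio to GV was 1.12 (range -0.10 to 1.83), against 0.19 in the table. Over all 23 sites, with 0.1 added to each score, it was -1.27. With no replicate neither ratio has an error estimate. Blastocysts had 2, 8.70% (interval 1.07 to 28.0), against 7.64%, which is close to the table, and 462 of the other genes had an equal or higher percentage.

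**Figure D4:**
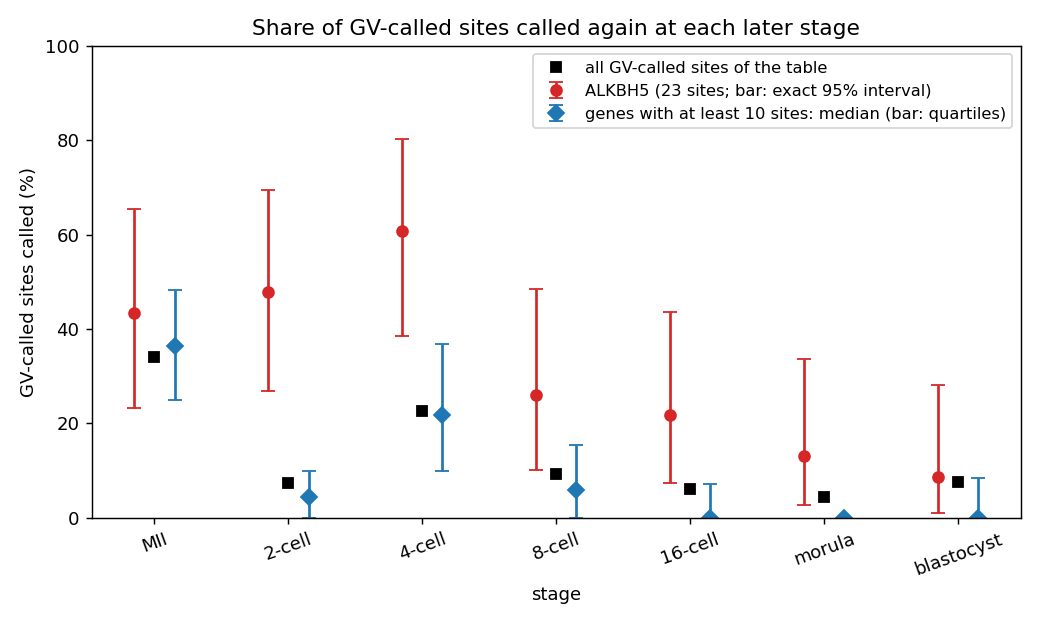
Percentage of GV-called sites called at each later stage. Red points are the 23 ALKBH5 sites with exact 95% intervals, black squares all GV-called sites, and blue diamonds the median and quartiles of 1888 genes; the interval of ALKBH5 lies above the black square in 2-cell (7.39%), 4-cell (22.7%), 8-cell (9.32%) and 16-cell (6.01%) embryos and includes it at MII, in morulae and in blastocysts.

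Of the 23 GV-called sites, 18 were called at 1 later stage or more. The 5 others make 21.7%, against 52.0% called at GV alone in the table. They were sites 2, 12, 14, 17 and 21. Calls at 4 or more later stages were found at 6 sites (1, 4, 13, 15, 18 and 27), while 5.29% of the sites of the table reached that number. No ALKBH5 site was called at all 8 stages, and only 0.41% of the GV-called sites of the table were.

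The longest series of calls belonged to sites 13 and 18, with 7 stages each. Site 13, an AGACG in coding sequence, had 0.237 at GV, 0.229 at MII, 0.153 in 2-cell, 0.251 in 4-cell, 0.273 in 8-cell, 0.366 in 16-cell embryos, 0.514 in morulae and 0 in blastocysts. Its lowest called score was thus in 2-cell embryos and its highest in morulae. Site 14, 3 bases downstream in the run agAcgAga, had 0.208 at GV and 0 at every later stage. The scores of these neighbouring adenosines thus differed after GV, and a 0 may also mean that site 14 was not measured. Of all GV-called AGACG sites in coding sequence, 6.56% were called in morulae.

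Site 18, a GGACT in the 3′ UTR within 71 bases of the last coding site, had 0.269 at GV, 0.240 at MII, 0.143 in 2-cell, 0.233 in 4-cell, 0.268 in 8-cell and 0.221 in 16-cell embryos, 0 in morulae and 0.381 in blastocysts. Its score stayed between 0.143 and 0.381 at every stage where it was called. Site 17, a GGACT on the coding side of the border, had 0.123 at GV, 0.0731 at MII and 0.0893 in 4-cell embryos, and 0 elsewhere. The other GGACT of the 3′ UTR, site 27, had 0.381 at GV, 0.391 at MII, 0 in 2-cell, 0.172 in 4-cell and 0 in 8-cell and 16-cell embryos, then 0.357 in morulae and 0.477 in blastocysts. Sites 18 and 27 were the 2 blastocyst calls of the gene. Of all 1442 GV-called GGACT sites in 3′ UTRs, 14.4% were called in blastocysts, and of all GV-called 3′ UTR sites 8.35%.

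Sites 1 and 4 in the first group, and site 15 in the third, were called at 5 stages. Site 1, a GGACC, had 0.223 at GV, 0.112 at MII, 0.289 in 2-cell, 0.132 in 4-cell, 0 in 8-cell and 0.198 in 16-cell embryos. Site 4, a TGAGG outside DRACH, stayed between 0.151 and 0.227 from GV to the 8-cell stage and was at 0 afterwards. Site 15, an AGATC, had 0.103 at GV, 0.105 at MII, 0.168 in 2-cell and 0.156 in 4-cell embryos, 0 in 8-cell and 16-cell embryos and 0.365 in morulae. Series interrupted by a 0, as in sites 1, 15 and 27, were thus found in DRACH and in other motifs.

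Of the sites with 4 called stages, site 20 (GGACC) had 0.149 at GV, 0.150 at MII, 0.183 in 2-cell and 0.129 in 4-cell embryos. Site 23 (AGACC) had 0.124 at GV, 0.0956 at MII, 0.122 in 2-cell, 0.158 in 4-cell and 0.158 in 8-cell embryos. Site 22 (GGATA) had 0.122 at GV, 0.112 at MII, 0.120 in 4-cell and 0.166 in 16-cell embryos. All 3 lay in the 3′ UTR and were at 0 from the morula stage on. The sites with 2 or 3 called stages scored up to 0.439 (site 16). Among them, site 9 had 0.191 at GV, 0.0725 at MII, 0.0991 in 4-cell, 0.162 in 8-cell and 0.186 in 16-cell embryos.

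By region, coding calls of the 23 GV-called sites numbered 13 at GV, 4 at MII, 6 in 2-cell and 7 in 4-cell embryos, then 4, 3, 2 and 0 from the 8-cell stage to blastocysts. Calls in the 3′ UTR numbered 10 at GV, 6 at MII, 5 in 2-cell and 7 in 4-cell embryos, then 2, 2, 1 and 2. Coding sites and 3′ UTR sites were thus both called up to the morula stage. In the table the regions were close to each other, with 34.2% of coding and 36.6% of 3′ UTR sites called at MII and 7.44% and 8.35% in blastocysts. At such percentages the 0 of 13 coding sites and 2 of 10 of the 3′ UTR called in blastocysts are too few to compare. A difference between the regions was not tested. DRACH sites numbered 7 at GV, 4 at MII, 4 in 2-cell and 5 in 4-cell embryos, then 3, 2, 1 and 2. Sites outside DRACH numbered 16, 6, 7 and 9 at the first 4 stages, then 3, 3, 2 and 0. Over all genes, 45.3% of DRACH sites and 29.4% of sites with other listed motifs were called at MII. In 2-cell embryos these shares were 8.67% and 6.88%, and in blastocysts 9.09% and 7.36%. The 2 of 7 DRACH sites and 0 of 16 others called in blastocysts are few, and a difference between the kinds of motif was not tested. The table gives no error rate for its calls at either kind of motif.

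Other genes of m6A control carried sites as well. FTO, the other known m6A demethylase, had no site in the table, nor had the writer METTL3. Outside ribosomal protein genes, sites called at MII and not at GV are listed only for part of the minus strand. For a gene outside that part, no site here and below means no GV call. Of the 9 writer genes, 7 had 73 GV-called sites in all, of which 35.6% were called at MII, 5.48% in 2-cell and 27.4% in 4-cell embryos. Of the 12 reader genes, 9 had 97 sites, with 36.1% called at MII, 9.28% in 2-cell and 18.6% in 4-cell embryos. In 2-cell embryos, where the table had 7.39%, all 9 reader calls lay in IGF2BP3, and the other reader genes had 0.

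Among the 6 genes of these lists with at least 10 GV-called sites, ALKBH5 had the highest percentage in 2-cell and 4-cell embryos and in morulae. The writer subunit gene RBM15B, which like ALKBH5 has 23 GV-called sites, had 10 called at MII, 1 in 2-cell, 10 in 4-cell and 7 in 8-cell embryos. The adaptor gene CBLL1 had 8 of 18 at MII, 2 in 2-cell and 6 in 4-cell embryos. The reader gene IGF2BP3 had 21 of 39 at MII, 9 in 2-cell and 12 in 4-cell embryos, and YTHDF1 6 of 10, 0 and 1. PRRC2A had 4 of 23 at MII, 0 in 2-cell and 6 in 16-cell embryos, where its count was above the 5 of ALKBH5. The interval of ALKBH5 in 2-cell embryos (26.8 to 69.4) overlaps those of IGF2BP3 (11.1 to 39.3), CBLL1 (1.38 to 34.7) and YTHDF1 (0 to 30.8). It does not overlap those of RBM15B (0.11 to 21.9) and PRRC2A (0 to 14.8). The intervals cover the counting of sites only, and sites of 1 transcript are not independent. The difference between genes was not tested.

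**Figure D5:**
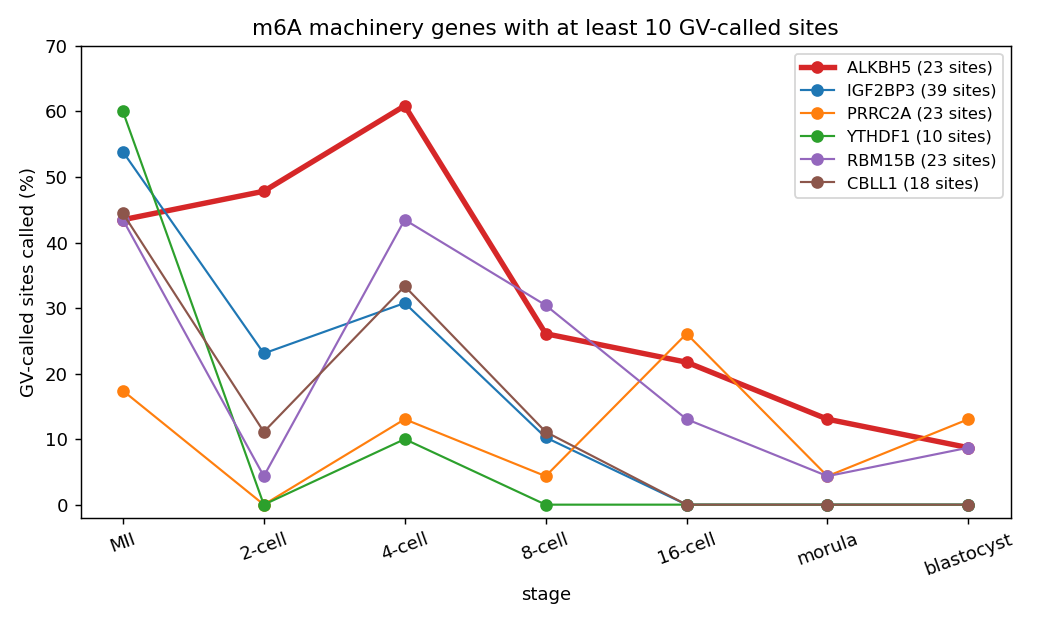
Percentage of GV-called sites called at each later stage for the 6 genes of m6A control with at least 10 GV-called sites, 1 line per gene with its number of sites. ALKBH5 is at 47.8% in 2-cell embryos, where IGF2BP3 comes next with 9 of 39 sites.

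In the AlkB family, whose members remove alkyl groups from nucleic acids or proteins, 4 of 9 genes had GV-called sites. Besides ALKBH5 these were ALKBH2 with 1, ALKBH3 with 2 and ALKBH7 with 1, and none of the 4 sites was called at a later stage. Over all genes, 52.0% of GV-called sites had no later call, so these 4 sites are too few to set against ALKBH5. ALKBH1, ALKBH4, ALKBH6 and ALKBH8 had no site in the table.

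Genes with a similar course were sought among protein-coding genes with at least 10 GV-called sites, by the distance between the percentages of called sites over the 7 later stages. The 5 nearest were REXO2, an exonuclease of short RNAs, SLBP, which binds the stem-loop of histone messages, DCAF1, a substrate receptor of a cullin ubiquitin ligase, TADA1, a subunit of the SAGA coactivator, and UBE2Q1, a ubiquitin-conjugating enzyme. Their distances ran from 22.2 to 27.6 percentage points, with a median of 70.1 over all 1887 genes. SLBP, with 23 sites, had 11 at MII, 6 in 2-cell, 13 in 4-cell, 6 in 8-cell, 5 in 16-cell embryos, 1 in morulae and 4 in blastocysts. DCAF1, with 63 sites, had 35, 19, 36, 18, 8, 0 and 3 in the same order. REXO2 had 4 of 10 at MII, 3 in 2-cell and 6 in 4-cell embryos, TADA1 12, 8 and 17 of 28, and UBE2Q1 13, 10 and 11 of 22. In each of the 5 fewer sites were called in 2-cell embryos than at MII. ALKBH5 had 11 and 10 at the limit of 0.1, an order that depended on that limit. By Spearman correlation none of these 5 was among the nearest 5.

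Markers of oocyte, cumulus and embryo cells were counted as well. Outside ribosomal protein genes, the sites listed have a call at GV or MII. The number of sites per marker thus cannot show which cells the RNA came from. Of 9 oocyte markers 8 had GV-called sites, 172 in all, of which 101 were called at MII, 68 in 2-cell, 94 in 4-cell and 64 in 8-cell embryos, and 0 in blastocysts. Of 6 cumulus cell markers 3 had sites (STAR 16, HAS2 14 and INHBA 1), of which 12 were called at MII, 4 in 2-cell, 9 in 4-cell and 2 in 8-cell embryos, and 0 later, while PTX3, TNFAIP6 and FSHR had none. Of 5 trophectoderm markers CDX2 had 1 GV-called site, called at no later stage, and of 3 inner cell mass markers SOX2 had 6. SOX2 had 2 of the 6 called at MII, 0 in 2-cell, 2 in 4-cell and 2 in 8-cell embryos. It had 3 in 16-cell embryos, 3 in morulae and 0 in blastocysts, where the table had 6.01%, 4.42% and 7.64%. Oocyte markers were at 58.7% and cumulus markers at 38.7% at MII, against 34.1% of the table. They were at 39.5% and 12.9% in 2-cell embryos, against 7.39%. In 4-cell embryos they were at 54.7% and 29.0%, against 22.7%, and in 8-cell embryos at 37.2% and 6.45%, against 9.32%. The part of either in the ALKBH5 calls was not tested. In these pooled cells, fewer cells with a transcript and less of it per cell cannot be told apart.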

How the data were processed

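The authors deposited 1 score per adenosine and stage with its chromosome, position, strand, gene, region and 5-base motif. The values are not whole numbers although the table is named for raw counts, and their scale is not stated. The submitters' processing notes list Trimmomatic 0.39 and also STAR 2.5.3a, with no role. No caller, build or rule for joining arms and replicates is given in the labels. The columns were read as the authors' value of each stage, with 0 columns left without a stage.

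The table ends at 65536 lines with its header. After 729 sites of ribosomal protein genes it holds 60116 GV-called sites, then 4690 MII-called minus-strand sites without a GV call, from chromosome 10 to 19 and on to chromosome 1. Sites called first after MII were not analysed here, so counts of later stages can miss ALKBH5 sites, and these stages were compared at GV-called sites. All 29 ALKBH5 sites lie inside the RefSeq gene of that name in ARS-UCD2.0, which overlaps 0 other genes there and served only as a check of names.

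Depth is unknown and no value has a replicate, so shares of sites were given with exact Clopper-Pearson intervals at 95%, beside the same share of all sites. Sites of 1 transcript are not independent. The genes named by rule were ALKBH5, the listed m6A and AlkB genes, and the 5 protein-coding genes with at least 10 GV-called sites nearest to ALKBH5. Members and lists were chosen with earlier results of these data known. The shares and the ranking were tested on simulated data with 1000 genes, where 9 of 9 checks passed. The shares were set and a gene with the same calls was planted there. The checks thus cover the arithmetic and not how reliable the nearest genes are. Alternatives were a minimum score of 0.2 or any above 0, DRACH motifs, 1 region alone, a pseudocount of 0.1, a minimum of 5 or 15 sites per gene, and Spearman correlation. Software was scipy 1.17.1, pandas 2.3.3, numpy 2.4.6 and matplotlib 3.10.9 under Python 3.11.15.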

Additional observations from a re-analysis of the deposited data

How the results depend on the processing

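Of 155 values recomputed under the alternatives, 110 stayed close to the value reported, 37 moved and 8, all log2 ratios, changed sign. Close means within its exact interval for a share, within 1.5 times for a count and, for a median log2 ratio, within its order-statistic interval (under 6 sites, their range). Some of these labels followed from the setting. DRACH sites are a subset, so their counts could not rise. A pseudocount at sites called at both stages only shrinks each ratio, and 10 of 10 such values stayed close. The tally is thus no measure of how stable the results are. With a minimum score of 0.2, ALKBH5 had 6 called sites at GV, 6 at MII, 5 in 2-cell, 2 in 4-cell, 4 in 8-cell and 3 in 16-cell embryos, and 3 were called at MII and not at GV. Of the 6 at GV, 4 were DRACH, 2 other motifs, 4 coding and 2 in the 3′ UTR. Called again were 16.7% in 2-cell, 33.3% in 4-cell, 50% in 8-cell embryos (7.97% in the table) and 33.3% in blastocysts (6.86% in the table). Writers were then at 17.3% in 4-cell embryos and 0% in morulae, and readers at 9.43% in 4-cell embryos.

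With any score above 0, 77.8% of 27 GV sites were called at MII and 81.5% in 4-cell embryos, against 39.3% and 25.7% in the table, 2 sites were called at MII and not at GV, and 0 of the 5 nearest genes were shared. DRACH sites alone numbered 7 at GV, 6 at MII, 5 in 2-cell, 6 in 4-cell, 4 in 8-cell, 2 in 16-cell and 1 in morulae, with 2 called at MII and not at GV; 28.6% of 7 were called in blastocysts (9.09% of the DRACH sites of the table), and writers were at 51.4% at MII and 0% in morulae (45.3% and 5.32% of the DRACH sites of the table). Among coding sites 0% were called in blastocysts, against 7.44% of the coding sites of the table.

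Over all sites called at either stage and with a pseudocount of 0.1, which counts missing calls as low scores, the median log2 ratio to GV was -0.80 in 2-cell, -1.12 in 8-cell, -1.16 in 16-cell and -1.27 in morulae. It was -0.13 from MII to 2-cell (0.34 at sites called at both), 0.078 from 2-cell to 4-cell (-0.26), -1.11 from 4-cell to 8-cell (0.16) and -0.035 from 8-cell to 16-cell embryos (0.31). With any score above 0 the median from GV to 16-cell embryos was 0.21 (-0.036 with the limit of 0.1). With at least 5 sites per gene 3 of the 5 nearest genes were shared, with at least 15 sites 4, and by Spearman correlation 0. The cause of the other moves was not tested.

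A nearest gene could not be ranked with a minimum of 0.2 or with DRACH motifs alone, where ALKBH5 had fewer than 10 sites. No paired analysis was possible because the table has 1 column per stage and no replicate columns, and leaving out each replicate was not run for that reason. The unknown read depth limits every absence of a call.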
